A study of Mus musculus with 16 samples.

Results

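The genes described here encode 5 enzymes of glucose breakdown, namely phosphoglucomutase Pgm1, aldolase Aldoa, glyceraldehyde-3-phosphate dehydrogenase Gapdh, phosphoglycerate mutase Pgam1 and pyruvate kinase Pkm. They are 5 of 7832 gene symbols compared, and were taken because their values in the 3 groups of arrays lay below 0, so those values are a description and carry no test. The symbols were carried by 9 probes, 3 for Aldoa, 3 for Gapdh and 1 for each of the other genes. Of these probes, 8 had enough values to be kept and 1 probe of Gapdh did not, so each of the 5 genes was measured.

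Cells of NIH3T3, a line of mouse fibroblasts kept in culture, were treated with azacytidine, a cytosine analogue that is incorporated into nucleic acids and traps DNA methyltransferases. The groups were Erbb2-transfected NIH3T3 cells at 10 µM azacytidine (8 arrays), Erbb2-transfected NIH3T3 cells at 5 µM (4 arrays) and NIH3T3 cells without the transgene at 10 µM (4 arrays). Each cDNA array compared them in its other channel with untreated RNA from the matching line, so every value is a ratio of treated over untreated cells of one line. The sources used here do not give the promoter of the transgene, the number of clones, the length of the treatment or whether arrays came from separate cultures, so the errors measure the spread between arrays.

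Glycolysis turns glucose into pyruvate in the cytosol and yields ATP and NADH. Many proliferating and transformed cells run it at a high rate in the presence of oxygen, and several of its genes are induced by hypoxia-inducible factor and by Myc. Pgm1 links the pathway to glycogen and nucleotide sugars by interconverting glucose 1-phosphate and glucose 6-phosphate. Aldoa splits fructose 1,6-bisphosphate, Gapdh carries out the oxidation step, Pgam1 moves a phosphate within phosphoglycerate, and Pkm makes pyruvate in the last step. Gapdh is also widely used as a reference gene to which the expression of other genes is scaled.

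The drug acts on methylation at CpG dinucleotides, and the genes are shown with the 250 bases before a transcription start, from RefSeq on the mouse build GRCm38.p6. The windows lie at chr4:99929201-99929450 on the plus strand for Pgm1, chr7:126799255-126799504 on the minus strand for Aldoa, chr6:125165774-125166023 on the minus strand for Gapdh, chr19:41911621-41911870 on the plus strand for Pgam1 and chr9:59656326-59656575 on the plus strand for Pkm. All 5 genes had a window. Capitals mark CpG dinucleotides, and where RefSeq gave several starts the window with the most of them is printed.
Pgm1: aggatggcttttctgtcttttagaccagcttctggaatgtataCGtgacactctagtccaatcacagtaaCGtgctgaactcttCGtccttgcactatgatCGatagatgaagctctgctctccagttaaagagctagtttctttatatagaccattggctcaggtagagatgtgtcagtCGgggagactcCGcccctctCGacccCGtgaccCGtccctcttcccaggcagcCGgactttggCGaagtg
Aldoa: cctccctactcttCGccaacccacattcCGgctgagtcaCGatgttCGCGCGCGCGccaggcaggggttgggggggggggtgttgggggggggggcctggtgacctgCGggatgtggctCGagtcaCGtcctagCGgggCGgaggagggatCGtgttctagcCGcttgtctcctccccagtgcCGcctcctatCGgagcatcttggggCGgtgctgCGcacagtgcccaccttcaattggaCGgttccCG
Gapdh: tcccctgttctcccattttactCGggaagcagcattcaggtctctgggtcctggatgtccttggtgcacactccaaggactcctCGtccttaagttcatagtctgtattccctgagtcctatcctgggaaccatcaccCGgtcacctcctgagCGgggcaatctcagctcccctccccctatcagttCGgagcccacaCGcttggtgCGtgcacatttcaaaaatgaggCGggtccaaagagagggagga
Pgam1: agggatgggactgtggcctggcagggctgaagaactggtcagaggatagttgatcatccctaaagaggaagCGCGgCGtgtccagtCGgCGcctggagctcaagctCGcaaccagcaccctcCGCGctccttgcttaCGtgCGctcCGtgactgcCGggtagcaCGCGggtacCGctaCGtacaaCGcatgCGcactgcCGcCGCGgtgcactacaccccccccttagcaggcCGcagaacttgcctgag
Pkm: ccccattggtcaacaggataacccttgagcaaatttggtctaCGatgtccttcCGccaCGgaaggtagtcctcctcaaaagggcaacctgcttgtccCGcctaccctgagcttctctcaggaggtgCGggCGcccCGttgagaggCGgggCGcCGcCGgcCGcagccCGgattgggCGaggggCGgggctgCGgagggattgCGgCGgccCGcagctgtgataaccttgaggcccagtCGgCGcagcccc

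The printed window held 11 CpG dinucleotides for Pgm1, 21 for Aldoa, 8 for Gapdh, 22 for Pgam1 and 21 for Pkm, against a median of 6 over 32536 windows of this length. Aldoa has 3 starts in RefSeq, and its windows held 21, 19 and 0 CpG dinucleotides, the first pair overlapping. The window with 0, at chr7:126800448-126800697 on the minus strand, lies upstream of the others. The printed Aldoa window is thus downstream of that start. Pkm has 2 starts, with 21 and 18. Thus the windows of Pgam1, Aldoa and Pkm had more CpG dinucleotides than 85.1%, 83.5% and 83.5% of all windows, Pgm1 more than 64.2% and Gapdh more than 56.7%. Methylation was not measured in these samples, so nothing is said here of the state of these sites.

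**Figure D1:**
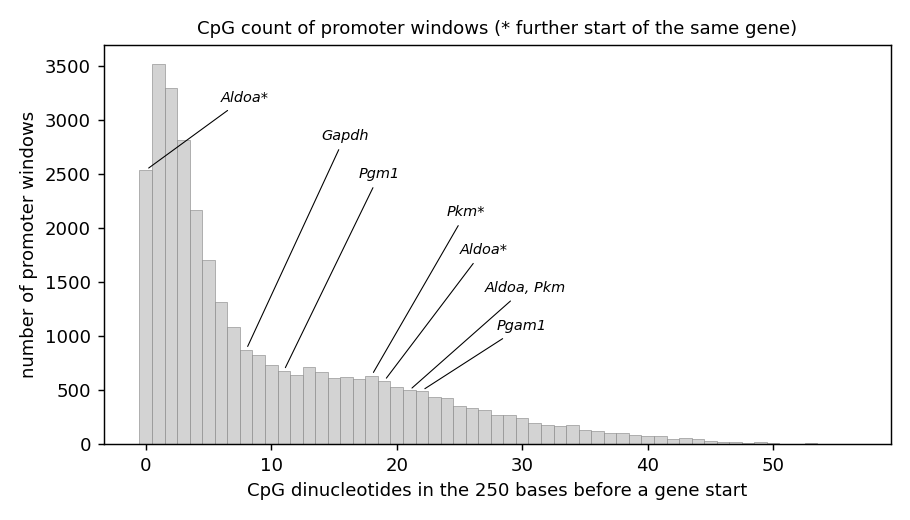
The histogram gives the number of promoter windows (y axis) by the count of CpG dinucleotides in the 250 bases before a gene start (x axis), over 32536 windows, with the windows of the 5 genes marked. The asterisks mark further starts of the same gene, and 1 start of Aldoa has 0 CpG dinucleotides while the others lie to the right of the median of 6.

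The core of the site that hypoxia-inducible factor binds was searched as ACGTG and as GCGTG on both strands of the printed windows. ACGTG occurred 2 times for Pgm1, 1 time each for Aldoa and Pgam1 and not for Gapdh or Pkm, and 16.7% of all windows hold it. Of the windows not printed, that of Pkm and 1 of Aldoa each held ACGTG 1 time. GCGTG occurred 2 times each for Gapdh and Pgam1 and not for the other genes, against 28.3% of all windows. The E-box CACGTG, which contains ACGTG, was in none of the 5 windows and is in 6.04% of all. The GC box GGGCGG occurred 2 times for Aldoa and 1 time each for Pkm and Pgm1, and 33.0% of all windows hold it. These are matches of letters in short windows and not measured binding sites.

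Arrays carried 20355 probes, with 16153 to 18507 ratios on each, and 12420 features, which are genes or probes without a single symbol, were fitted with limma, a linear model across all features. Each value given is the log2 of treated over untreated, and ± marks the fit's standard error. The direction is assumed, by reading the deposited ratios as Cy5 over Cy3 and turning the arrays whose treated RNA was labelled Cy3. These data do not settle it. Were the ratios Cy3 over Cy5, every sign would turn. Were they treated over untreated already, these values would hold dye bias. For the untransfected cells both channels carry the same dye label, and with the dyes exchanged the signs of that group alone would turn. Arrays 3, 5 and 6 of Erbb2 cells at 10 µM had the widest spread of ratios, with interquartile ranges of 1.05, 1.04 and 1.21, against 0.59 to 0.85 on the other 13 arrays. All of 10 fibroblast markers had a probe, but a ratio gives no level, so the labelled cell type was not checked, and Erbb2 has no probe under that symbol. A ratio of RNA pools cannot tell less of a transcript per cell from a change in the cells that make up the culture.

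Across the 5 genes and 16 arrays, 77 of 80 values lay below 0. The 3 exceptions were Pkm on array 4 of Erbb2 cells at 10 µM, Pgam1 on array 2 at 5 µM and Pgm1 on array 1 of untransfected cells. On the deposited scale this means that the values were mostly negative where the treated RNA was labelled Cy5 and positive where it was labelled Cy3. Aldoa and Gapdh were below 0 on all 16 arrays, as were 103 of 7415 features with 16 values (1.39%). Within Erbb2 cells at 10 µM, 4 of the 5 genes were below 0 on all 8 arrays, against 2.04% of all features on every array with a value. At 5 µM it was 4 of 5 against 10.2%, and in untransfected cells 4 of 5 against 13.3%. The genes were chosen on these values, and nothing is read from these counts.

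**Figure D2:**
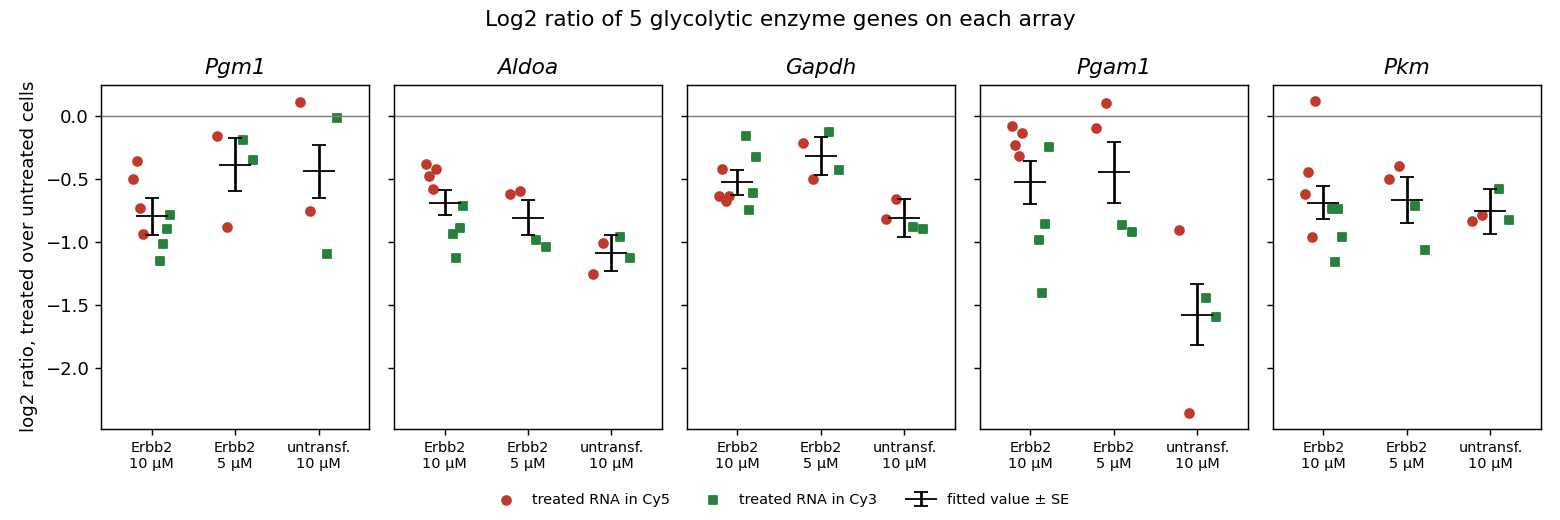
Each panel shows 1 gene, with the log2 ratio of treated over untreated cells on the y axis and the 3 groups on the x axis. Circles are arrays with the treated RNA in Cy5, squares those with it in Cy3, and the bar is the value fitted by limma with its standard error. The lowest single value is that of Pgam1 on array 2 of untransfected cells, at -2.36.

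Pgm1 (Entrez Gene 72157, 1 probe) had its largest departure from 0 in Erbb2 cells at 10 µM. There the 8 arrays ran from -1.15 to -0.36 with a median of -0.84. At 5 µM the arrays gave -0.16, -0.88, -0.19 and -0.35, and in untransfected cells 0.11, -0.76, -1.10 and -0.02. The 3 groups overlapped, and 2 of the 4 untransfected arrays lay close to 0. The fitted values were -0.80 ± 0.15 at 10 µM (n = 8), -0.39 ± 0.21 at 5 µM (n = 4) and -0.44 ± 0.21 in untransfected cells (n = 4), which for Erbb2 cells at 10 µM is a ratio of 0.574. Without array 2 the value at 5 µM was -0.19, and without array 3 that of untransfected cells was -0.23.

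Aldoa (11674, 3 probes) was the 1 gene of the 5 that lay below 0 past the threshold in each group, at 5 µM by a call that most fits without 1 array lost. In Erbb2 cells at 10 µM the arrays ran from -1.13 to -0.38 with a median of -0.65. At 5 µM they gave -0.62, -0.60, -0.99 and -1.04, and in untransfected cells -1.26, -1.01, -0.96 and -1.13. No array came closer to 0 than -0.38, and the lowest Erbb2 arrays overlapped with the untransfected ones. The fitted values were -0.69 ± 0.10 (n = 8), -0.81 ± 0.14 (n = 4) and -1.09 ± 0.14 (n = 4), or 0.619, 0.570 and 0.470 times the level of untreated cells. Besides Aldoa, 2 of 12420 features were lower past the threshold in all 3 groups (3 in all, 0.0242%), the zinc finger gene Zcchc4 and the unnamed probe3054, which are named here after their values were seen.

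Gapdh (14433, 2 kept probes) had the narrowest spread of the 5 genes in untransfected cells, where the arrays gave -0.82, -0.66, -0.88 and -0.90. In Erbb2 cells at 10 µM the arrays ran from -0.75 to -0.16 with a median of -0.62, and at 5 µM they gave -0.22, -0.50, -0.13 and -0.43. The untransfected arrays lay below every array at 5 µM and overlapped with those at 10 µM. Fitted values were -0.53 ± 0.10 (n = 8), -0.32 ± 0.15 (n = 4) and -0.81 ± 0.15 (n = 4), ratios of 0.693, 0.801 and 0.569.

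Pgam1 (18648, 1 probe) had the lowest value of the 5 in untransfected cells and the widest spread between arrays. The untransfected arrays gave -0.91, -2.36, -1.45 and -1.60. In Erbb2 cells the arrays ran from -1.41 to -0.08 with a median of -0.29 at 10 µM, and were -0.10, 0.10, -0.87 and -0.92 at 5 µM. The Erbb2 arrays differed by dye, with means at 10 µM of -0.19 where the treated RNA was in Cy5 and -0.88 where it was in Cy3, and at 5 µM of 0.00 and -0.90. In untransfected cells these means were -1.64 and -1.52. The fitted values were -0.53 ± 0.17 (n = 8), -0.45 ± 0.24 (n = 4) and -1.58 ± 0.24 (n = 4). In untransfected cells that is a ratio of 0.334, and 0.548% of the 12420 features had a lower value.

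Pkm (18746, 1 probe) had nearly the same fitted value in the 3 groups. Its arrays ran from -1.16 to 0.12 with a median of -0.74 in Erbb2 cells at 10 µM, were -0.50, -0.40, -0.72 and -1.07 at 5 µM, and -0.84, -0.79, -0.58 and -0.83 in untransfected cells. Array 4 at 10 µM, at 0.12, was the 1 array above 0. The fitted values were -0.69 ± 0.13 (n = 8), -0.67 ± 0.18 (n = 4) and -0.76 ± 0.18 (n = 4), ratios of 0.621, 0.628 and 0.590. The cDNA probe carries no annotation of the M1 or M2 isoform, so the value is that of the gene.

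At an adjusted p under 0.05 in limma over all features, 4 of the 5 genes were lower in Erbb2 cells at 10 µM (all but Pgam1), against 0.862% of all features. At 5 µM it was 1 of 5, Aldoa, against 0.0322%, and in untransfected cells 4 of 5 (all but Pgm1), against 2.13%. The genes were chosen on these values, so nothing is read from the counts. The 5 genes had a median of -0.69 at 10 µM and -0.45 at 5 µM in Erbb2 cells, and -0.81 in untransfected cells, while the median over all features was 0.00, -0.02 and 0.03. With arrays 3, 5 and 6 left out at 10 µM, with trended and robust variances, and with each group fitted on its own arrays, limma passed 0 of the 5 in that group. Fitted on its own arrays, the untransfected group also had 0 of 5, and with trended and robust variances 3 of 5. With no array turned for its dye, 0 of 5 passed in any group. With no filter, 3 of 5 passed at 10 µM and 2 of 5 in untransfected cells. The call of Gapdh at 10 µM was lost without array 1, 4 or 7 of that group. That of Pkm in untransfected cells was lost without array 1, 2 or 4 of that group. It was also lost without array 1 or 2 at 10 µM or array 1 at 5 µM of Erbb2 cells. At 5 µM the call of Aldoa was lost in 13 of 16 fits that left out 1 array, of any group, and also with no dye term, no filter, single probes, trended variances or own arrays.

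Between doses, taken as 10 µM minus 5 µM in Erbb2 cells, the fitted differences were -0.41 ± 0.26 for Pgm1, 0.12 ± 0.18 for Aldoa, -0.21 ± 0.18 for Gapdh, -0.09 ± 0.29 for Pgam1 and -0.02 ± 0.22 for Pkm. In limma 0 of the 5 passed, as did 0 of all 12420 features (0%), and 0 of the 5 and 538 of all features had an unadjusted p under 0.05. These values are built from the group values that served to choose the genes and are given as a description. Their standard errors, from 0.18 to 0.29, exceed 3 of the 5 differences, and untreated Erbb2 cells are the comparison for each dose, so a modest dependence on dose is not resolved.

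Between lines at 10 µM, taken as Erbb2 cells minus untransfected cells, the greatest difference was that of Pgam1, at 1.05 ± 0.29, whose treated level was thus closer to that of untreated cells in the Erbb2 line. Aldoa differed by 0.40 ± 0.18, Gapdh by 0.28 ± 0.18 and Pkm by 0.07 ± 0.22. Pgm1 had a difference of the other sign, at -0.36 ± 0.26, which ran from -0.57 without array 3 of untransfected cells to -0.17 without array 4. In limma 0 of the 5 passed, against 0.813% of all features, and 2 of the 5 and 1207 of all 12420 features had an unadjusted p under 0.05. Without array 2 of untransfected cells, which holds the value of -2.36, the difference for Pgam1 was 0.66. With the treated RNA in Cy5, Pgam1 averaged -0.19 in Erbb2 and -1.64 in untransfected cells, and in Cy3 -0.88 and -1.52. The model holds 1 dye term for all groups, so a dye effect that differs between lines was not fitted. With the dyes of the untransfected arrays exchanged, the differences were -1.25 for Pgm1, -1.78 for Aldoa, -1.34 for Gapdh, -2.12 for Pgam1 and -1.45 for Pkm, and all 5 passed.

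The dye of the treated RNA was not used to choose the genes and was tested as a term of the same model. Were the deposited ratios treated over untreated already, this term would hold the treatment response common to the groups, not a dye effect. In limma it passed for 0 of the 5 genes and 0 of 12420 features (0%), while 1 of the 5 and 1000 of all had an unadjusted p under 0.05. It was 0.27 ± 0.12 for Pgam1, 0.15 ± 0.07 for Aldoa, 0.15 ± 0.09 for Pkm, 0.08 ± 0.11 for Pgm1 and -0.02 ± 0.07 for Gapdh. In Erbb2 cells at 10 µM, Aldoa averaged -0.46 with the treated RNA in Cy5 and -0.92 with it in Cy3, and those arrays did not overlap. Pkm averaged -0.48 and -0.90, Pgm1 -0.64 and -0.97, and Gapdh -0.59 and -0.46. The average over both dyes is thus below 0 for each gene, while its size in a single dye differs.

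The separate probes of Aldoa and Gapdh show how far probes of 1 gene gave like ratios. The difference between probes was likewise not used to choose the genes. It was tested for 6 pairs with a two-sided exact sign-flip permutation test over arrays and adjusted over the 6 pairs. Aldoa probes 4656, 7609 and 10638, each annotated to NM_007438, averaged -0.94, -0.79 and -0.74 over 16 arrays and were below 0 on all of them. Probe 4656 minus probe 10638 was -0.20 ± 0.31 (SD, n = 16), below 0 on 11 of 16 arrays, with an adjusted permutation p of 0.0586, and it passed without array 7 at 10 µM or array 3 or 4 at 5 µM of Erbb2 cells. The other 2 Aldoa pairs differed by -0.15 and -0.05, with adjusted permutation p of 0.399 and 0.680. Gapdh probes 16944 and 19122 averaged -0.55 and -0.54, and their difference of -0.01 ± 0.25 (SD, n = 16) had an adjusted permutation p of 0.848.

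The remaining probe of Gapdh, 20266, which is annotated to the same transcript NM_008084, had values on 11 of 16 arrays and gave other ratios. It had 2.94 on array 4 of Erbb2 cells at 10 µM and 3.68 on array 1 at 5 µM, where the kept probes lay below 0, and between -1.18 and 0.56 on the 9 further arrays. On the 11 arrays it averaged 0.46, against -0.57 for probe 16944 and -0.56 for probe 19122. The differences, -1.03 ± 1.47 and -1.02 ± 1.47 (SD, n = 11), were below 0 on 9 of 11 arrays each, and both had an adjusted permutation p of 0.0586, passing without array 3 or 4 at 5 µM. The fit without a filter averages this probe in, and holds 16082 features. There Gapdh was -0.28 at 10 µM and -0.09 at 5 µM in Erbb2 cells, and -0.60 in untransfected cells, and it passed in no group. Pkm, with 1 probe, also lost its call in untransfected cells in that fit, so the loss for Gapdh is not set down to this probe alone. Gapdh has many processed pseudogenes in the mouse genome, and whether any of its probes also binds their transcripts was not tested.

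**Figure D3:**
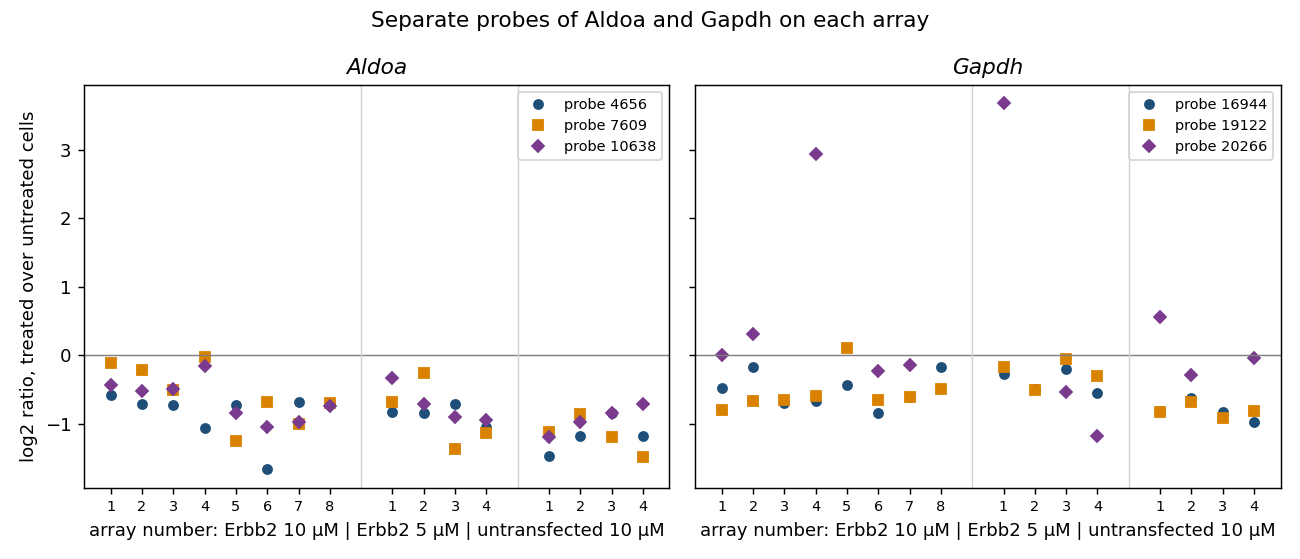
Log2 ratio of treated over untreated cells (y axis) for each probe of Aldoa and Gapdh on each array (x axis, arrays numbered within the 3 groups). The 3 Aldoa probes are below 0 on every array, and Gapdh probes 16944 and 19122 on all but array 5 of Erbb2 cells at 10 µM, where probe 19122 is at 0.11. Gapdh probe 20266 reaches 2.94 and 3.68 on single arrays and is missing on 5.

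The other enzymes of the pathway were counted from a list of 28 genes, of which 19 had a probe and 16 were compared. None passed in Erbb2 cells at 10 µM or at 5 µM, where limma gave 0 of 16 against 1.26% and 0.209% of all features, and 2 and 0 of them had an unadjusted p under 0.05. In untransfected cells Eno3, an enolase best known from muscle, fell by 1.91 ± 0.41 with an adjusted p of 0.0195 in limma and was the 1 of 16 that passed, against 2.73% of all features. Eno3 had -0.42, -3.38, -2.75 and -1.09 on the untransfected arrays, and its call was lost without array 2 and without array 3. The median of the 16 was -0.13 at 10 µM and -0.24 at 5 µM in Erbb2 cells, and -0.09 in untransfected cells, with 11, 13 and 12 of them below 0. Gpi1, Pgk1, Eno1 and Ldha, which carry out neighbouring steps in most cells, have no probe under those symbols, so the steps between the 5 genes are covered in part.

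Isoforms of the same steps that are better known from other tissues were also compared, and those described next were chosen after their values were seen. Aldoc, the brain aldolase, had 0.08 ± 0.29 in Erbb2 cells at 10 µM, -0.01 ± 0.38 at 5 µM, with -0.77 ± 0.38 in untransfected cells. Pgam2, the muscle mutase, had -0.50 ± 0.19, -0.44 ± 0.27 and -0.06 ± 0.27. Pklr, the pyruvate kinase of liver and red cells, had 0.25 ± 0.43, 0.21 ± 0.61 and -0.16 ± 0.61. Gapdhs, the sperm dehydrogenase, had -0.21 ± 0.15, -0.29 ± 0.21 and -0.16 ± 0.21. None of these passed in limma, and their differences from the 5 genes were not tested.

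**Figure D4:**
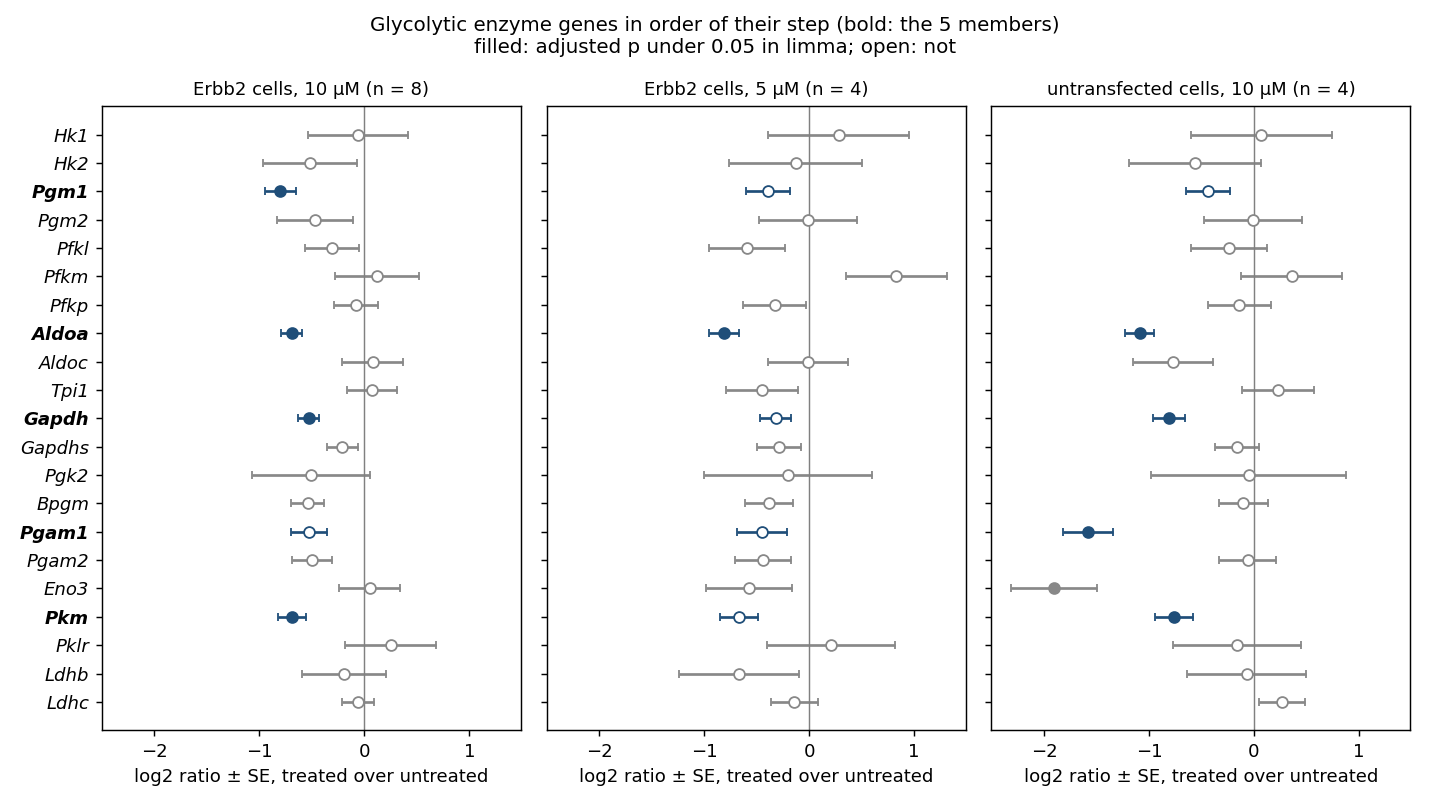
Fitted log2 ratio of treated over untreated cells with its standard error (x axis) for 21 glycolytic enzyme genes in the order of their steps (y axis), in the 3 groups. Filled symbols passed an adjusted p under 0.05 in limma. In untransfected cells Pgam1 at -1.58 and Eno3 at -1.91 have the lowest values.

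Lists of neighbouring pathways held 155 genes with the other glycolytic enzymes and the reference genes, and 86 were compared. In limma 1 of the 86, the reference gene Rpl13a, passed in Erbb2 cells at 10 µM (1.16%, against 1.26% of all features). At 5 µM 0 passed, with 10 at an unadjusted p under 0.05, beside 16 at 10 µM and 17 in untransfected cells. In untransfected cells 9 passed, 8 lower and 1 higher (10.5%, against 2.73%), and 3 of the 9 were reference genes. Without array 2 of that group 2 of the 86 passed. None of the 8 genes of glucose and lactate transport and their regulators, the 2 of the pentose phosphate pathway, the 3 of gluconeogenesis and the 7 of glycogen and nucleotide sugars passed in any group in limma, with between 0 and 2 of a list at an unadjusted p under 0.05. The medians of these 4 lists lay between -0.35 and 0.11.

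Of 24 genes of pyruvate dehydrogenase and the tricarboxylic acid cycle, 1 fell and 1 rose in untransfected cells. Pdha1, the catalytic subunit that passes pyruvate on to the cycle, had -0.80, -0.98, -1.26 and -1.48 on the untransfected arrays and fell by 1.13 ± 0.22 (adjusted p of 0.00844 in limma), a call lost without array 4. In Erbb2 cells at 10 µM Pdha1 was above 0 on 7 of 8 arrays, and its difference, Erbb2 minus untransfected cells, was 1.41 ± 0.26 with an adjusted p of 0.0185 in limma, lost without array 2, 3 or 4 of untransfected cells. With the dyes of the untransfected arrays exchanged, it turned to -0.84 ± 0.26 and did not pass. The iron-regulated aconitase Aco1 rose by 1.44 ± 0.36 over 3 arrays (adjusted p of 0.0479), a call lost in 21 of 29 other fits. Its arrays gave 2.83, 0.78 and 0.48, and without array 1 the value was 0.66. Of the list, 2 of 24 passed in untransfected cells, against 2.73% of all features, and 0 of 24 in limma in either Erbb2 group, with 4 at 10 µM and 1 at 5 µM at an unadjusted p under 0.05. The median of the list was -0.03 at 10 µM and 0.03 at 5 µM in Erbb2 cells, and -0.08 in untransfected cells.

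Of 17 genes of hypoxia-inducible factor and its targets outside glycolysis, 3 passed in untransfected cells, all lower, against 2.13% of all features lower. In either Erbb2 group 0 passed in limma, against 1.26% at 10 µM and 0.209% at 5 µM in either direction, with 3 at 10 µM and 2 at 5 µM at an unadjusted p under 0.05. Heme oxygenase Hmox1 fell by 0.81 ± 0.15 (adjusted p of 0.00628 in limma), the angiogenic factor Vegfa by 1.01 ± 0.23 (0.0307) and the endoplasmic reticulum oxidase Ero1a by 2.68 ± 0.65 (0.0443). The call of Hmox1 was lost without array 2 of that group, and that of Vegfa without array 1, 2 or 4. Ero1a had -1.35, -1.75, -4.66 and -2.98 on the 4 arrays, and its call was lost in 19 of 29 other fits. Its difference, Erbb2 minus untransfected cells at 10 µM, was 4.2 ± 0.82 with an adjusted p of 0.0298 in limma, lost in 7 of 16 fits without 1 array. With the dyes of the untransfected arrays exchanged, it turned to -1.17 ± 0.82 and did not pass. The medians of the list were -0.18, 0.03 and -0.30.

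Genes that serve as references in expression work beside Gapdh were also counted, since the ratios of Gapdh lay below 0 in all groups. Of 10 compared, Rpl13a fell in Erbb2 cells at 10 µM, by 0.47 ± 0.09 (adjusted p of 0.0198 in limma), and Rpl13a (-0.82 ± 0.13), Eef1a1 (-0.87 ± 0.19) and Rplp0 (-0.53 ± 0.13) fell in untransfected cells, with adjusted p of 0.0027, 0.0183 and 0.037. That is 1 of 10 against 0.862% of all features lower at 10 µM, and 3 of 10 against 2.13% in untransfected cells. All 3 belong to the translation apparatus. Without single arrays, the call of Rpl13a was lost in 5 fits for Erbb2 cells at 10 µM and in none for untransfected cells, that of Eef1a1 without array 2, 3 or 4 of untransfected cells, and that of Rplp0 in 10 fits. At 5 µM 0 of 10 passed in limma, against 0.0322% lower, with 5 at an unadjusted p under 0.05. At that unadjusted p there were 6 of 10 at 10 µM and 4 of 10 in untransfected cells. The medians were -0.33 at 10 µM and -0.24 at 5 µM in Erbb2 cells, and -0.12 in untransfected cells. Actb, the cytoskeletal actin most often paired with Gapdh and named here after its values were seen, had -0.38 ± 0.12, -0.48 ± 0.16 and -0.38 ± 0.16 and did not pass. B2m, also named after its values were seen, lay above 0 in each group, at 0.33 ± 0.17, 0.92 ± 0.24 and 0.13 ± 0.24, and did not pass. Of the 10 genes, 8 lay below 0 at 10 µM and 6 at 5 µM in Erbb2 cells, and 7 in untransfected cells.

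The mean of the 5 genes on an array ran from -1.09 to -0.39 in Erbb2 cells at 10 µM, from -0.76 to -0.32 at 5 µM and from -1.11 to -0.74 in untransfected cells. It was lowest on array 6 of Erbb2 cells at 10 µM, which also had the widest spread of ratios, and on array 2 of untransfected cells, which did not. Over 16 arrays, Pearson's r of each gene with the mean of the other 4 was 0.68 for Pgam1, 0.66 for Aldoa, 0.41 for Pkm, 0.32 for Gapdh and -0.04 for Pgm1. Pgm1 thus shared the sign of the group values but not their variation between arrays. The arrays share groups and dyes, so these coefficients are a description.

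Among 4975 other genes with a value on all 16 arrays, those most like the mean of the 5 genes by Pearson's r were the immunophilin Fkbp1a (0.86), the immune adaptor Tyrobp (0.86), the ribosomal protein gene Rpl35 (0.85), the collagen chaperone Serpinh1 (0.83) and the mRNA decapping gene Edc3 (0.80). Fkbp1a had -0.18 ± 0.09, -0.13 ± 0.13 and -0.54 ± 0.13 in the order Erbb2 10 µM, Erbb2 5 µM and untransfected. Serpinh1 had -0.38 ± 0.20, 0.01 ± 0.29 and -1.28 ± 0.29. As read, their values were lowest in untransfected cells, as was the mean of the 5 genes, and with the dyes of those arrays exchanged both turn to the highest. The r of these genes was then 0.93 for Fkbp1a, 0.92 for Tyrobp, 0.90 for Rpl35, 0.86 for Serpinh1 and 0.46 for Edc3, and Gigyf1, Rps29, Rps28, Rpl39 and Rps14 stood highest, at 0.95 to 0.97, as named here after their values were seen. Edc3 lay near 0 in both Erbb2 groups (0.08 ± 0.13 and 0.05 ± 0.18).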

How the data were processed

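Each 2-colour array received RNA of treated and of untreated cells of one line. What the authors deposited is a log ratio per probe, read as log2 from its size, and centred near 0 (array medians from -0.03 to 0.053). The sources used here do not give log base, numerator, image analysis or normalization. The 1755 cells with 1 repeated value per array between 15.438 and 16.592, where other values end at 7.935, were taken as placeholders and set to missing, beside 38737 empty cells. Within groups, arrays correlated with Pearson's r over probes no lower than -0.0769 in deposited signs. Opposite dye labels gave mean r of 0.00388 at 10 µM and -0.00267 at 5 µM in Erbb2 cells, and -0.0529 in untransfected cells, and same labels 0.0257, 0.0516 and 0.109. Ratios were read as Cy5 over Cy3, and arrays with the treated RNA in Cy3 by the channel 1 label were turned, as in earlier work on these data.

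Probes were kept with values on at least 3 arrays of a group of 4 and 6 of the group of 8 and in both dye arrangements (14813 of 20355), and probes with the same single symbol were averaged into 12420 features. Symbols came from the platform annotation. Of 14030 probes with 1 symbol, 13994 matched RefSeq by Entrez Gene ID and 0 symbols changed. There were 5 probes with several symbols and 6320 with none, which stayed unnamed. All 16 arrays entered one model in limma 3.58.1 (R 4.3.3, data.table version 1.17.8) with 3 group values and a dye term, followed by eBayes and Benjamini-Hochberg adjustment at 0.05, two-sided. The procedure was tested on simulated data. Genes named were the 5 enzymes, list genes past the threshold (at most 4 per list and group), the 5 most like the mean of the enzymes, and those said to be named after their values were seen. The 5 enzymes, the lists and the alternatives were chosen with earlier results of these data known. The number of arrays limits the precision. Signal over background is unknown.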

Additional observations from a re-analysis of the deposited data

Results flagged for a closer look

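Among 31 sets of values for 1 gene or probe within a group, 3 had 1 array set apart from the others by Dixon's criterion, which chance gives in about 1 of 20 sets. All were single probes in Erbb2 cells at 10 µM. Aldoa probe 4656 had -1.67 on array 6, the array with the widest spread of ratios. Gapdh probe 19122 had 0.11 on array 5, while its other 7 arrays lay below 0. Gapdh probe 20266, which was not kept, had 2.94 on array 4.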

How the results depend on the processing

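Fitted group values of the 5 genes turned sign only under 2 alternatives, both of which change the direction of ratios, and not all of them turned. Gapdh stayed below 0 under every alternative in Erbb2 cells, with highest values of -0.07 at 10 µM and -0.04 at 5 µM. Pgm1 at 5 µM did so too, with a highest value of -0.13. With no array turned, Aldoa in untransfected cells was also still below 0, at -0.05. With no array turned, Aldoa had 0.23 in Erbb2 cells at 10 µM and 0.20 at 5 µM, Pgam1 0.34 and 0.45, Pkm 0.21 and 0.22, and Pgm1 0.16 at 10 µM. In untransfected cells Gapdh then had 0.08, Pgm1 0.12, Eno3 0.01, Ero1a 1.13, Hmox1 0.01 and Pdha1 0.24, and Rpl13a had 0.05 at 10 µM in Erbb2 cells. With the dyes of the untransfected arrays exchanged, that group turned by construction (Aldoa 1.09, Gapdh 0.81, Pgam1 1.58, Pkm 0.76, Pgm1 0.44, Eno3 1.91, Ero1a 2.68, Hmox1 0.81, Pdha1 1.13, Vegfa 1.01, Eef1a1 0.87, Rpl13a 0.82, Rplp0 0.53, Aco1 -1.44), and 351 features differed between the lines.

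Counts of features past the threshold were 157 in Erbb2 cells at 10 µM, 26 at 5 µM, 339 in untransfected cells, 0 between doses, 101 between lines and 0 for the dye term. They were 2, 0, 4, 0, 0 and 213 with no array turned. Without a filter 89 passed at 10 µM, 4 at 5 µM and 1 for the dye term. With a value required on all 16 arrays, which leaves fewer features, they were 247, 73, 189 between lines and 2 for the dye term. Trended and robust variances gave 20, 3, 214 in untransfected cells and 64 between lines, and groups fitted on their own arrays gave 22, 0 and 0. At 5 µM, 46 passed with arrays scaled to one spread, 147 with array weights and 16 with each probe on its own. Without arrays 3, 5 and 6, 57 passed at 10 µM. Leaving out 1 array gave 103 to 145 at 10 µM, 5 to 24 at 5 µM, 213 to 372 in untransfected cells, 0 between doses, 60 to 105 between lines and 0 to 1 for the dye term.

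Of the genes of the lists, reference genes included, 1 passed at 10 µM and 0 at 5 µM in Erbb2 cells, and 9 in untransfected cells. At 10 µM this became 3 with placeholders kept, a value on all arrays, array weights or single probes, and 0 with no array turned, no filter, trended variances, own arrays or without arrays 3, 5 and 6. At 5 µM it became 1 with a value on all arrays, scaled arrays or array weights. In untransfected cells it became 5 with no filter or trended variances, and 0 with no array turned or own arrays. Leaving out 1 array gave 0 to 2, 0 and 2 to 9. For the probe pairs, leaving out 1 array gave differences of -0.20 to -0.09, -0.23 to -0.15 and -0.09 to 0.00 for Aldoa, and of -0.05 to 0.02, -1.19 to -0.73 and -1.21 to -0.74 for Gapdh; 3 of these 6 pairs passed when single arrays were left out.

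Replicate numbers gave no clear sign of pairing, as 3 of 12 same-numbered pairs correlated above 0.1 in their deviations. Of 12 arrays, 2 correlated best with their own number. Same-numbered pairs ran from -0.107 to 0.133 and other pairs from -0.152 to 0.133. Correlations this small cannot settle whether same-numbered arrays share a culture or batch. With the replicate block, 165, 2 and 2 features passed in the groups, 0 between doses, 0 between lines, 0 for the dye term and 0 list genes in any group, over the 9275 features that could be fitted, and of the 5 genes 1, 0 and 0 passed in the groups. The cause of these changes was not tested.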
